A study of Mus musculus with 35 samples.

Results

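Lce1d, Lce1f and Sprr1a code for precursors of the cornified envelope, the protein shell of dead skin cells, and were followed here in fibroblasts treated with methyl methanesulfonate (MMS), a reagent that methylates DNA, protein and glutathione. They are 3 of the 18194 genes that had a probe set with a single gene symbol on the arrays. They were chosen by their measured values, the signal in MMS-treated cells lying far above that in control cells of the same time in these same data, so the differences between MMS and control cells are given below as a description and carry no test. Where a gene had more than 1 probe set, the one with the higher mean signal stood for it.

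The study exposed primary mouse embryonic fibroblasts (MEFs) of strain C57BL6/J to MMS in order to compare the response to alkylation in mammalian cells with that in fly cells. RNA was taken from 9 groups of cultures: control cells in fresh medium at 0, 1, 8, 24 and 72 h after the medium was changed, and cells in medium with MMS at 40 µg/mL at 1, 8, 24 and 72 h. Each group had 4 arrays except MMS at 72 h, for which 3 were analysed here, giving 35 arrays in all. All cells, controls included, were wild type, were grown in serum and low oxygen, and had received fresh medium at 0 h. MEFs are cultured from whole embryo bodies and can hold several cell types, and in RNA from such a mixture more cells of a type and more RNA per cell cannot be told apart. The submitters call the arrays of a group biological replicates without saying whether they came from separate embryos, so p-values measure only the spread between these samples, which may be technical. Precision is limited by the number of arrays.

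In skin, keratinocytes that move outwards replace their plasma membrane with the cornified envelope, in which transglutaminases cross-link loricrin, involucrin, small proline-rich (SPRR) proteins and late cornified envelope (LCE) proteins. The genes for these precursors lie side by side in the epidermal differentiation complex (EDC), on chromosome 3 in the mouse. Sprr1a is also known outside skin, as a gene that is switched on in injured nerve cells and in stressed heart muscle.

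Signals are on a log2 scale, so a difference of 1 is a doubling of signal, and a limit of log2 4.40, the 40th percentile of all values, marks the range near background. Below this limit no change can be read. The 12 fibroblast markers gave array means of 9.36 to 10.97, and at most 1 of them was under the limit in any group. In MMS cells 9 of 12 were lower at 8 h (array means 9.78 to 9.88 against 10.50 to 10.54 in control). At 24 h 11 of 12 were lower and 1 higher (9.36 to 9.44 against 10.13 to 10.26). At 72 h, when the chosen genes overlapped control, 5 of 12 were lower (10.29 to 10.44 against 10.83 to 10.97). Of all genes tested (limma, adjusted p under 0.05), 25.0% were lower at 8 h, 19.4% at 24 h and 10.4% at 72 h. The part of these marker differences in the differences below was not tested. Of 12 keratinocyte markers, 5 (Krt14, Krt15, Trp63, Col17a1 and Krt1) were under the limit in all groups, and Krt5 lay between 4.07 and 4.72. Others of that list were above it, with group means of 7.57 to 10.00 for Perp, 5.22 to 6.78 for Sfn and 5.31 to 7.16 for Krt10, which was highest in the 8 h groups (7.16 in control and 6.85 in MMS cells). In each group 6 to 9 of the 12 were under the limit, and the array means of the list ran from 4.42 to 5.38. These means were higher in MMS than in control cells without overlap at 24 h (4.68 to 5.05 against 4.49 to 4.57) and 72 h (4.58 to 4.68 against 4.42 to 4.46). At 1 and 8 h they overlapped. Of 7 tested markers, 1 was called higher at 24 h and 2 at 72 h, and 0 lower, beside 25.0% and 10.1% of all genes higher. Intestinal transcripts stood out on replicate 3 of control 0 h, MMS 1 h, MMS 24 h and MMS 72 h, where the mean of 24 markers was 10.63, 6.94, 8.59 and 5.77. On the other arrays of those groups it was at most 4.75, and elsewhere at most 5.44. Both 8 h groups stood apart from all other times, with a macrophage marker mean of 7.75 to 7.87 in control and 7.11 to 7.32 in MMS cells against 4.34 to 5.60 elsewhere, and with the collagen gene Col1a1 at 11.14 and 10.42 against 11.91 to 14.03. The differences of the 3 chosen genes without the arrays with intestinal transcripts are given below, and no call of a named gene from the lists was lost without those arrays as a set. The 8 h values have no counterpart outside these 8 h groups.

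Promoters of the genes are shown first, because Lce1d and Sprr1a had almost the same time course while several of their close relatives had not. Both were chosen for high MMS against control signal, so part of this likeness, and of the contrast with relatives, follows from the choice. They are RefSeq sequences of build GRCm38.p6, from 250 bases before to 50 bases after the start site, and 2 of the 3 genes had an entry (Lce1f did not). Capitals mark matches on either strand to TGANTCA, the AP-1 element bound by dimers of Fos and Jun proteins, to TGACNNNGC, the core of the antioxidant response element bound by NRF2, and to TATAAA, the TATA box. Lce1a2, the relative whose promoter is most like that of Lce1d, and Lce1l, a relative whose signal rose at 8 h but not at 24 h, are shown for comparison and hold none of these matches. The promoters of Lce1h and Lce1i, whose signals were higher in MMS cells at both times, are not shown and hold none either. That of Sprr1b, a gene under the limit in all groups, holds an AP-1 match and TATAAA.
Sprr1a, chr3:92485832-92486131, minus strand: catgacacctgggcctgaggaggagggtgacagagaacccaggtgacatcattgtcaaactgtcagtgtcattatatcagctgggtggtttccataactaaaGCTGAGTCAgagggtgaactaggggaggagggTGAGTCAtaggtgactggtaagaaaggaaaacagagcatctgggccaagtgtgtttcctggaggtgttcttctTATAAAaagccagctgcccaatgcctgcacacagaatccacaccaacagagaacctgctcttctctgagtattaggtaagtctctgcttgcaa
Lce1d, chr3:92687161-92687460, minus strand: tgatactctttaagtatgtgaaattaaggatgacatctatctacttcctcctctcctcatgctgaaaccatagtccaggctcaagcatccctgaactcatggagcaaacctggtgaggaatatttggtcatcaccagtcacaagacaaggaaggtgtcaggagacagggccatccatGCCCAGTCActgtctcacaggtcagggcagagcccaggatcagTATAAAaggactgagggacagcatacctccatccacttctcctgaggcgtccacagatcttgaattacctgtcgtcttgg
Lce1a2, chr3:92670266-92670565, minus strand: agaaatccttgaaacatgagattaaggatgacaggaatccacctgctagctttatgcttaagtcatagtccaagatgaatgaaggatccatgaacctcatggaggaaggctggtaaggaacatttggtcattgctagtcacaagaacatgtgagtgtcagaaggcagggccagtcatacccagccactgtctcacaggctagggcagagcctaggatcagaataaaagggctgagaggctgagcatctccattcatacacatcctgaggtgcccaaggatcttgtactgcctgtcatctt
Lce1l, chr3:92851237-92851536, minus strand: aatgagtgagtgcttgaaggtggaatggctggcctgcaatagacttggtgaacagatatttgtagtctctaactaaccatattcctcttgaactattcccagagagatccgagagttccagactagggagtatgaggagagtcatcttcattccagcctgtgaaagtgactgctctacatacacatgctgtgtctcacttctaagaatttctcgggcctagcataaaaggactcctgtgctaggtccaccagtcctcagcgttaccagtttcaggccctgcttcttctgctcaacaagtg
In Sprr1a the AP-1 matches began at positions -146 and -116 from the start site, the antioxidant core at -148 overlapped the first of them, and TATAAA stood at -43. Lce1d had an antioxidant core at -73, TATAAA at -30 and no AP-1 match. Of 32851 promoters of the same 300 bases, 7.81% held TGANTCA, 12.4% TGACNNNGC and 13.6% TATAAA. Among 36 promoters of Lce and Sprr genes, Lor and Ivl searched in the same way, 11 held an AP-1 match, 7 the antioxidant core and 16 TATAAA. Crct1, another gene of the complex, had no promoter entry and was not searched. Other motifs searched were CACCC, the KLF motif, which Sprr1a held 4 times on the minus strand (the last of these, at -119, overlaps the second AP-1 match) and Lce1d not at all, against 57.5% of promoters with at least 1 match, and TGACGTCA and TGATGNAAT, the cyclic AMP and C/EBP-ATF elements, which neither held (1.79% and 0.965% of promoters). The Lce1d promoter shared 227 of 300 aligned bases (75.7%) with Lce1a2 and 55.7% with Sprr1a. A match describes these letters only, and no binding was measured.

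Lce1d, an LCE protein of the first LCE group, was at background in every control group and in MMS cells at 1 and 72 h. In control cells at 8 h its log2 signal was 3.67, 3.51, 3.43 and 3.49, and in MMS cells 6.83, 6.80, 7.22 and 7.02. At 24 h the control arrays read 3.39, 3.32, 3.45 and 3.27 and the MMS arrays 6.53, 6.61, 5.82 and 6.67. All MMS arrays at 8 and 24 h therefore lay above all control arrays, by 3.13 at 8 h and 2.37 at 24 h between the nearest arrays. The group means differed by 3.44 ± 0.11 (SE of the difference, n = 4 and 4) at 8 h and by 3.05 ± 0.20 at 24 h. Because the control arrays were all under the limit, the sizes in fold are lower bounds: at least 5.92-fold at 8 h and at least 4.02-fold at 24 h above the limit. At 1 h (MMS 3.48, 3.36, 3.35 and 3.29, control 3.48, 3.38, 3.22 and 3.48) and at 72 h (MMS 3.55, 3.47 and 3.73, control 3.37, 3.74, 3.42 and 3.32) the groups overlapped and both were under the limit. The lowest MMS array at 24 h, 5.82, was replicate 3, which carried intestinal transcripts, and without such arrays the 24 h difference was 3.25. The only probe set for Lce1d has the suffix that Affymetrix gives to probes that also match other transcripts, so a part of the signal may come from related LCE genes.

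Sprr1a, a small proline-rich protein, had the same course from a baseline just above the limit. At 8 h control cells read 5.42, 5.04, 5.02 and 5.05 and MMS cells 8.81, 8.41, 8.91 and 8.45. At 24 h the values were 4.63, 4.62, 4.82 and 4.62 in control and 7.91, 7.88, 6.97 and 7.44 in MMS cells. Again no MMS array overlapped a control array at either time. The difference was 3.51 ± 0.16, or 11.4-fold, at 8 h and 2.88 ± 0.23, or 7.35-fold, at 24 h. At 1 h the MMS arrays, 5.22, 5.11, 5.44 and 5.43, lay just above the control arrays, 4.73, 4.88, 4.65 and 5.09, with a gap of 0.03 between the nearest 2 arrays and a difference of 0.46 ± 0.12 (0.41 without the arrays with intestinal transcripts). By 72 h the groups overlapped fully, with MMS arrays at 4.33, 4.66 and 5.17 and control arrays at 4.40, 4.93, 4.87 and 5.08. The lowest MMS array at 24 h was once more replicate 3, and without the arrays with intestinal transcripts the 24 h difference was 3.07.

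Lce1f, which is separated from Lce1d by Lce1e in the complex, had a larger difference at 1 h than either of them and also moved in control cells. At 1 h control arrays read 5.65, 5.54, 5.71 and 5.60 and MMS arrays 6.56, 6.96, 6.87 and 7.30. At 8 h the control arrays stood at 8.03, 8.28, 8.53 and 8.64 and the MMS arrays at 11.49, 11.54, 11.59 and 11.52. At 24 h control cells were back at 4.68, 4.31, 4.81 and 4.85, and MMS cells were at 8.67, 8.81, 8.75 and 8.61. Thus no MMS array overlapped a control array from 1 to 24 h, and the MMS signal at 24 h was close to the control signal at 8 h. The differences were 1.29 ± 0.16 (2.45-fold) at 1 h, 3.17 ± 0.14 (8.98-fold) at 8 h and 4.05 ± 0.13 (16.5-fold) at 24 h. At 72 h the MMS arrays read 3.55, 3.88 and 5.85 against 3.99, 3.97, 4.17 and 4.06 in control, and the mean difference of 0.38 ± 0.72 rested on replicate 3, an array with intestinal transcripts. Without the arrays with intestinal transcripts the differences were 1.31, 4.03 and -0.33 at 1, 24 and 72 h.

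A second probe set for Lce1f, made from the same transcript record, gave another shape. Its control arrays were near the limit throughout, at 3.85, 4.41, 4.65 and 4.81 at 8 h and 3.57, 3.22, 3.75 and 3.32 at 24 h. Its MMS arrays read 8.82, 8.67, 9.05 and 9.03 at 8 h and 4.90, 4.57, 4.55 and 4.79 at 24 h. MMS arrays were above control arrays at both times in this probe set too, but the difference was larger at 8 h (4.46 ± 0.23, 22.1-fold) than at 24 h (1.24 ± 0.15, at least 1.23-fold above the limit), the reverse of the first. At 1 h its groups overlapped (4.40, 4.13, 4.15 and 4.33 in MMS, 4.42, 3.47, 3.75 and 3.73 in control cells). The early difference and the ranking of 8 against 24 h for Lce1f are thus those of 1 probe set.

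**Figure D1:**
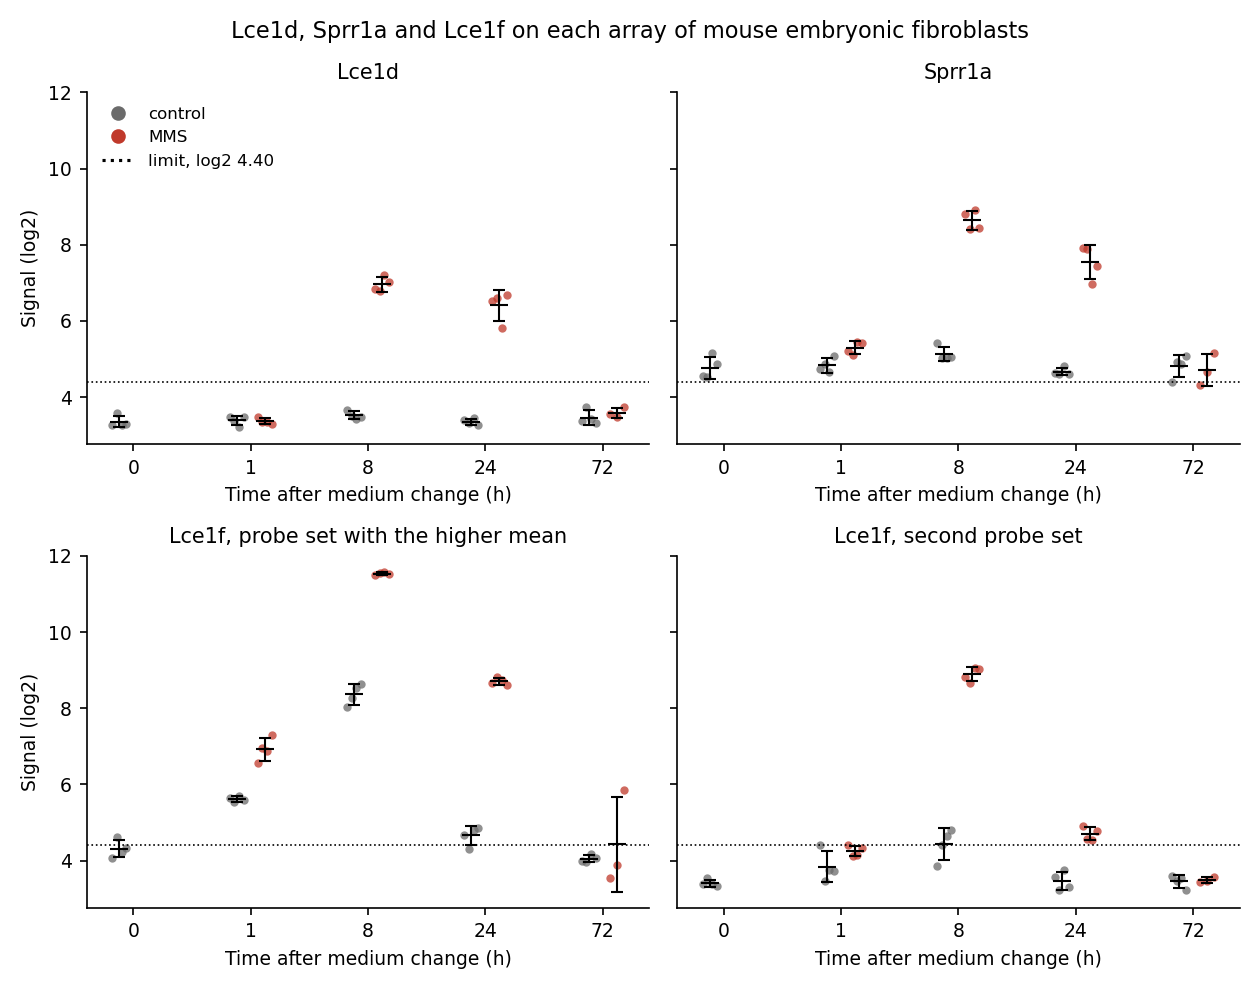
Log2 signal of Lce1d, Sprr1a and both Lce1f probe sets (y axis) on each array against time after the medium change in hours (x axis, evenly spaced), with control in grey and MMS in red, the bar at the group mean, whiskers of 1 SD and the limit of 4.40 dotted. MMS arrays at 8 and 24 h lie above all control arrays of the same time in every panel, and by 72 h the groups overlap.

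Ordered by mean, MMS at 8 h was the highest group for all 3 genes (6.97 ± 0.20 for Lce1d, 8.64 ± 0.25 for Sprr1a and 11.54 ± 0.04 for Lce1f; SD, n = 4) and MMS at 24 h was next, with no overlap between the arrays of those groups. Below that, the remaining 7 groups of Lce1d lay within 3.36 to 3.58 and each overlapped its neighbour. For Sprr1a the remaining groups ran from 5.30 ± 0.16 in MMS cells at 1 h down to 4.67 ± 0.10 in control cells at 24 h, and all neighbours in that order overlapped. Lce1f had more steps: MMS at 24 h (8.71 ± 0.09) overlapped control at 8 h (8.37 ± 0.27), then came MMS at 1 h (6.92 ± 0.31), control at 1 h (5.63 ± 0.07) and control at 24 h (4.66 ± 0.25) without overlap, and the last 4 groups overlapped their neighbours. Signals of different probe sets are not compared in size.

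Of the 3 genes, 3 had all MMS arrays above all control arrays at 8 h, 3 at 24 h, 2 at 1 h and 0 at 72 h. Over the 14135 genes that reached the limit in at least 1 group this held for 25.0% at 8 h, 23.8% at 24 h and 4.69% at 1 h. As the genes were chosen for this contrast, nothing is read from these counts.

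The course in control cells is given as a description too, because its later control arrays are among the values that chose the genes and the choice favours a low control signal at those times. Lce1f was higher in control cells after the change to fresh medium, from 4.07, 4.61, 4.23 and 4.34 at 0 h, by 1.31 ± 0.26 at 1 h and by 4.06 ± 0.26 at 8 h (SE from the model of all groups). As the 0 h mean was under the limit, the sizes in fold are lower bounds, at least 2.34-fold at 1 h and at least 15.6-fold at 8 h above the limit. All 4 arrays at each of these times were above all 4 at 0 h. At 24 h the difference was 0.35, with overlapping arrays, and at 72 h, with both groups under the limit, no change could be read. Of all genes tested, 7.22% were called higher in control cells at 1 h, 35.8% at 8 h, 9.12% at 24 h and 21.8% at 72 h. Without the arrays with intestinal transcripts the Lce1f differences were 1.29 at 1 h and 4.03 at 8 h. The 8 h groups are those with high macrophage and low Col1a1 signal, and the part of that in the Lce1f difference was not tested. In the second Lce1f probe set the control means were 3.41 ± 0.09 at 0 h and 4.43 ± 0.42 at 8 h, a smaller step around the limit.

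Sprr1a was 0.36 ± 0.19 above 0 h at 8 h in control cells, with overlapping arrays, and within 0.10 of 0 h at 1, 24 and 72 h. Its 0 h arrays were 4.55, 4.54, 5.15 and 4.86, and the highest of them is replicate 3, with intestinal transcripts. Without such arrays the 8 h difference was 0.48. Lce1d was under the limit in all 5 control groups, from 3.36 to 3.53, and no change could be read.

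Lce1d and Sprr1a were much alike across groups, with Pearson's r of 0.984 over the 9 group means and 0.974 over the 35 arrays. Lce1f was less so, with 0.82 to Lce1d and 0.886 to Sprr1a over the group means. These r share the same arrays and are a description over few groups, set mostly by the 8 and 24 h MMS groups, and no p is given. All 3 genes were chosen by MMS against control values, so part of their likeness follows from the choice. Among 6139 genes whose group means span at least 1 log2 unit, the genes nearest to Lce1d were Serpinb1b, a serine protease inhibitor (r = 0.991), Slc7a11, the cystine and glutamate exchanger that supplies cysteine for glutathione (0.987), and Hgsnat, a lysosomal acetyltransferase of heparan sulfate breakdown (0.985), with Sprr1a the next at 0.984. Nearest to Sprr1a were Hinfp, a regulator of histone genes (0.990), Slc7a11 (0.985) and Lce1d. Slc7a11, Serpinb1b, Ampd3 and Pip4k2c stood among the 8 nearest genes of both Lce1d and Sprr1a. Slc7a11 had mean differences of 3.70 at 8 h and 2.97 at 24 h, a size close to that of Lce1d and Sprr1a, and Serpinb1b, which went from 3.67 to 6.63 at 8 h, was near background in control cells like Lce1d.

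The gene nearest to Lce1f was Crct1, a cysteine-rich gene of the same complex (r = 0.989), followed by Wnt11, a Wnt ligand (0.981), and Tbc1d9 (0.977). Crct1 read 8.79, 8.81, 8.77 and 8.83 in control cells at 8 h and 10.56, 10.25, 10.63 and 10.61 in MMS cells. At 24 h it read 5.72, 5.51, 6.06 and 5.75 in control and 8.53, 8.43, 7.86 and 8.52 in MMS cells. No arrays overlapped at either time, and like Lce1f the gene was higher in control cells at 8 h than at 0 h (by 2.88). The MMS differences were 1.72 at 8 h and 2.58 at 24 h. Since the gene was picked for its likeness to Lce1f, these values are a description as well.

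**Figure D2:**
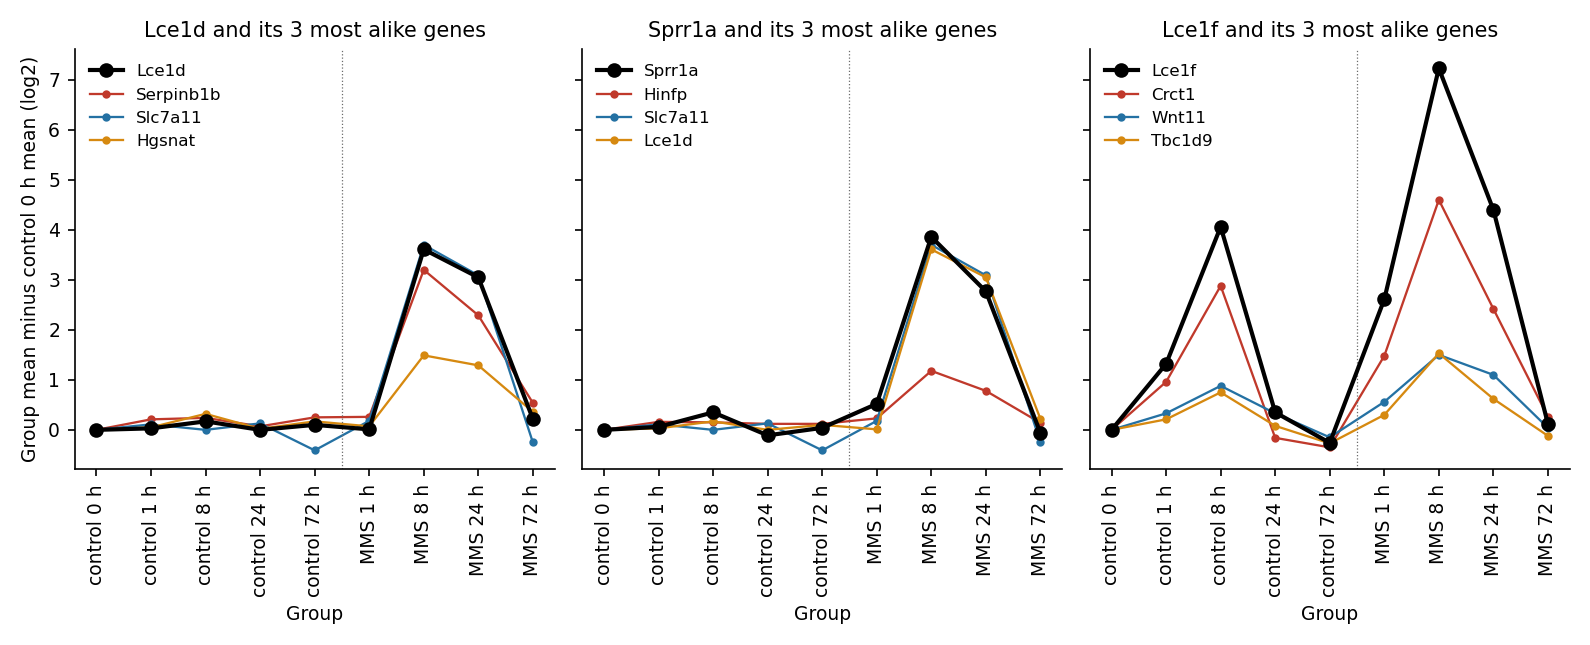
Group means minus the control 0 h mean (y axis, log2) in the 9 groups (x axis, control to the left and MMS to the right of the dotted line) for each gene in black and the 3 genes nearest to it by Pearson's r in colour. Lce1d, Sprr1a and Slc7a11 reach similar heights at 8 and 24 h in MMS cells, while Lce1f and Crct1 are also raised in control cells at 1 and 8 h.

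Other genes of the complex moved in both directions or not at all. Of 46 listed EDC genes without the 3, 42 had a probe set of their own and 29 reached the limit (Crct1, described above, was not in the list). In MMS cells at 8 h, 10 of these 29 rose and 5 fell at an adjusted p under 0.05 (limma, with Benjamini-Hochberg adjustment over all genes tested), against 28.7% and 25.0% of all genes tested. At 24 h, 3 rose and 5 fell, against 25.0% and 19.4%. At 1 h none was called in either direction, where 0.361% of all genes were higher and 0.0283% lower, and at 72 h 3 were higher and 0 lower, against 10.1% and 10.4%. The median difference of the 29 genes was 0.18 at 8 h and -0.08 at 24 h, beside 0.06 and 0.01 over all genes.

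Within the families of the chosen genes, 10 other Lce genes were tested. MMS cells had 4 of them higher and 1 lower at 8 h, while at 24 h the numbers were 2 and none, beside the shares of all genes (28.7% and 25.0% at 8 h, 25.0% and 19.4% at 24 h). Lce1l, another gene of the complex, came nearest to the chosen genes at 8 h, at 5.92, 6.08, 6.29 and 6.85 in MMS cells against 3.42, 3.39, 3.16 and 3.26 in control (at least 3.69-fold above the limit, adjusted p = 2.4e-19, limma). At 24 h it was at background, 3.15, 2.99, 3.13 and 3.06 in MMS cells, as it was in all groups but MMS at 8 h. Lce1i rose by 1.51 ± 0.15 at 8 h and 0.70 ± 0.15 at 24 h, and Lce1h by 1.15 ± 0.11 and 0.61 ± 0.11. Lce1h also had the largest step in control cells among the named Lce and Sprr genes, from 6.81 at 0 h to 11.25 at 8 h (adjusted p = 5.6e-24, limma), the time at which Lce1f was highest in control cells. Lce3f rose by 0.75 ± 0.12 at 8 h (adjusted p = 2.6e-06, limma), with MMS arrays at 5.50 to 5.85 and control arrays at 4.64 to 5.15. At 24 h both its means were under the limit. Lce1a1 fell by 0.28 at 8 h, and Lce1b, Lce1a2, Lce3a, Lce3b and Lce3c gave differences from -0.21 to 0.25 that did not pass the test at 8 or 24 h. The probe sets of Lce1h, Lce1i, Lce1a1, Lce3b and Lce3c are of the kind that also matches related transcripts.

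Of 4 other Sprr genes tested, 2 were higher at 8 h, Sprr2h by 0.72 ± 0.14 and Sprr2k by 0.49 ± 0.14. Sprr2k was also the 1 gene lower at 24 h, by 1.06, and the 1 gene higher at 72 h, by 0.47. Of all genes, 28.7% were higher at 8 h, 19.4% lower at 24 h and 10.1% higher at 72 h. With 4 genes, the counts are too small to be set apart from these shares. The Sprr2h probe set is of a kind that can also match related transcripts. Sprr3, next to Sprr1a in the complex, gave 0.18 at 8 h and -0.32 at 24 h (adjusted p = 0.29 and 0.052, limma). Sprr1b, a close relative of Sprr1a, was under the limit in all groups, at 3.36 or less. Among the large envelope precursors, Lor (loricrin) was higher at 8 h by 1.13 ± 0.26 (adjusted p = 0.00043, limma), with overlapping arrays. Its control mean was 6.32 at 0 h and 5.42 at 8 h, and its MMS mean at 8 h was 6.55. Ivl (involucrin) was higher by 0.43 at 8 h but lower by 0.50 at 24 h. Kprp, a keratinocyte proline-rich protein, was higher by 0.98 at 8 h. Flg (filaggrin), Hrnr and Tchh were under the limit in all groups, with group means of at most 3.16, 3.31 and 3.77. At the S100 end of the complex, S100a3 was higher by 1.67 at 24 h, from a control mean of 4.23 that was under the limit. S100a16 was lower by 0.88 and 0.98 at 8 and 24 h.

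**Figure D3:**
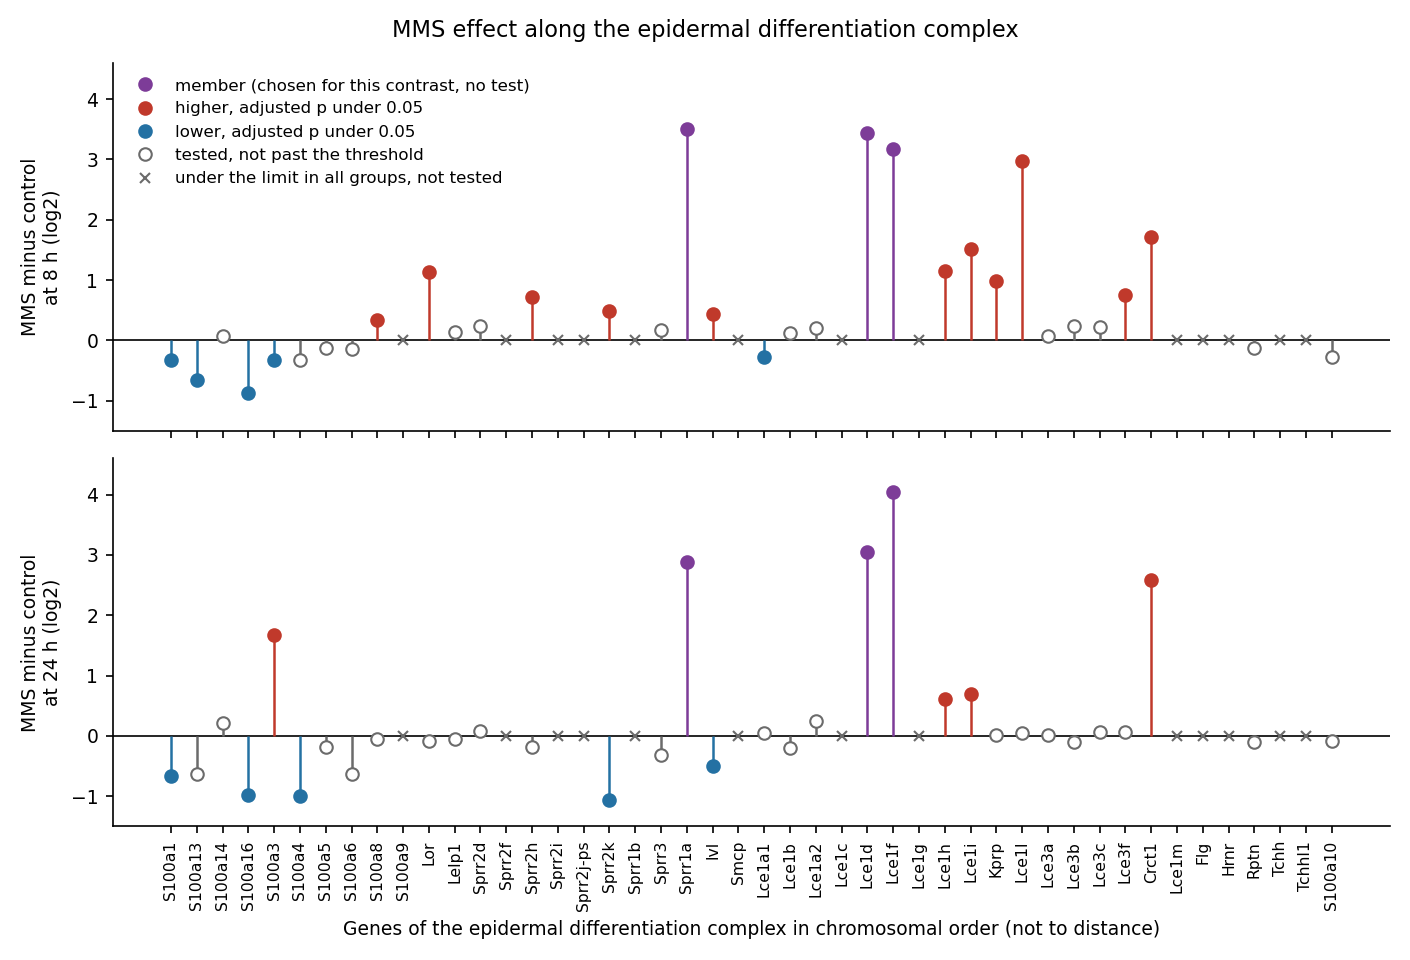
MMS minus control (y axis, log2) at 8 h (top) and 24 h (bottom) for genes of the epidermal differentiation complex in chromosomal order (x axis, not to distance), with the chosen genes in purple, genes that passed the limma test in red or blue, other tested genes open and genes under the limit drawn as crosses at 0. Sprr1a, Lce1d, Lce1f and Crct1 stand above their neighbours at both times, Lce1l at 8 h.

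Genes that build or process the envelope but lie elsewhere gave mixed values. Of 28 such genes, 18 were tested, with 4 rises and 1 fall at 8 h, 5 rises and 3 falls at 24 h, 3 rises and 1 fall at 72 h and no call at 1 h. Of all genes 28.7%, 25.0% and 10.1% rose and 25.0%, 19.4% and 10.4% fell at these times, so the rises at 8 and 24 h were near the share of all genes. The largest rises at 24 h were those of Cst6, a cysteine protease inhibitor of the skin barrier (2.57 ± 0.30, adjusted p = 2.7e-08, limma), and Serpinb2 (1.58 ± 0.19). Cst6 thus rose at 24 h, when the chosen genes were still high, but gave only 0.39 at 8 h. Envoplakin (Evpl), a plakin of the envelope, was higher by 0.54 at both times, and Elovl4, an enzyme for very long fatty acids, by 0.65 and 0.71. Sciellin (Scel) fell by 0.78 at 24 h. Cnfn, Krtdap, Klk5, Klk7, Spink5 and Alox12b were among 10 genes of this list under the limit in all groups.

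Many keratins and desmosome genes were near background. Of 25 listed, 24 were on the array and 14 were tested, with 1 rise and 1 fall at 8 h, 3 rises and 2 falls at 24 h and 4 rises and 0 falls at 72 h, against rises in 28.7%, 25.0% and 10.1% and falls in 25.0%, 19.4% and 10.4% of all genes. Krt1, Krt2, Krt6b, Krt14, Krt16 and Krt17 did not reach the limit in any group, while Krt5, Krt6a, Krt10 and Krt77 did in at least 1, Krt10 at 6.85 in MMS and 7.16 in control cells at 8 h. Perp, a desmosome gene that is also a p53 target, rose from 7.90 to 10.00 at 24 h (2.10 ± 0.18, adjusted p = 6.1e-11, limma) and was 1.25 higher at 72 h, and is counted among the keratinocyte markers above. Dsp (desmoplakin) was higher by 2.45 ± 0.78 at 24 h (adjusted p = 0.01, limma), with all MMS arrays (lowest 6.56) above all control arrays (highest 5.15). Its highest array was replicate 3 with intestinal transcripts. Without that array alone the difference was 1.90 and missed the threshold (adjusted p = 0.059, limma). The call held without all arrays with intestinal transcripts. At 72 h Dsp was higher by 2.66 ± 0.84 (adjusted p = 0.022, limma). That call was lost without replicate 2 (2.56, adjusted p = 0.07, limma) or replicate 3 (2.51, adjusted p = 0.08, limma) of MMS. The highest mean of the keratinocyte markers on an MMS array was also on replicate 3 of MMS at 24 h, 5.05. The other arrays of that group gave 4.77, 4.72 and 4.68, against 4.49 to 4.57 in control cells. The intestinal marker mean of replicate 3 was 8.59, and the part of intestinal transcripts in the keratinocyte marker mean was not tested.

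Transcription factors of keratinocyte differentiation and of the stress response moved in both directions. Of 30 listed, 27 were on the array and 21 tested, with 2 rises and no fall at 1 h, 8 rises and 4 falls at 8 h, 9 rises and 1 fall at 24 h and 5 rises and 2 falls at 72 h. The shares of all genes that rose and fell were 0.361% and 0.0283% at 1 h and 28.7% and 25.0% at 8 h. They were 25.0% and 19.4% at 24 h and 10.1% and 10.4% at 72 h. Among AP-1 genes, Atf3 rose by 2.92 ± 0.20 at 8 h (7.23 to 10.16, adjusted p = 2.9e-13, limma), Fosl1 by 0.82, 0.92 and 1.36 at 8, 24 and 72 h, and Junb by 0.67, 0.60, 0.84 and 0.48 at 1, 8, 24 and 72 h. The Junb call was lost without 1 array at 1 h (adjusted p = 0.097, limma, without replicate 3 of MMS, 0.051 without replicate 3 of control, and also without replicate 1 of MMS) and at 72 h (0.40, adjusted p = 0.089, without replicate 1 of MMS). Jun was lower by 0.48 at 8 h, and Fosl2 by 0.33 in the probe set used but not in the mean of its probe sets (0.04). Nfe2l2, the gene of NRF2, was higher by 1.04 ± 0.10 at 8 h (adjusted p = 1.5e-10, limma) and 0.34 at 24 h. Its 24 h call was lost with the mean of its probe sets (0.21, adjusted p = 0.075, limma). Of the keratinocyte factors, Zfp750 rose from 4.65 to 5.27 at 8 h and from 4.55 to 5.93 at 24 h, Klf4 fell by 1.53 at 8 h, and Trp63, Grhl1, Grhl3 and Ovol1 were under the limit in all groups. At 72 h, when Lce1d, Lce1f and Sprr1a overlapped control cells, Fosl1 was higher by 1.36 (8.92 in MMS and 7.56 in control cells). Its control mean had been 8.59 at 0 h and 9.14 at 24 h, and its MMS mean 10.65 at 8 h and 10.06 at 24 h.

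**Figure D4:**
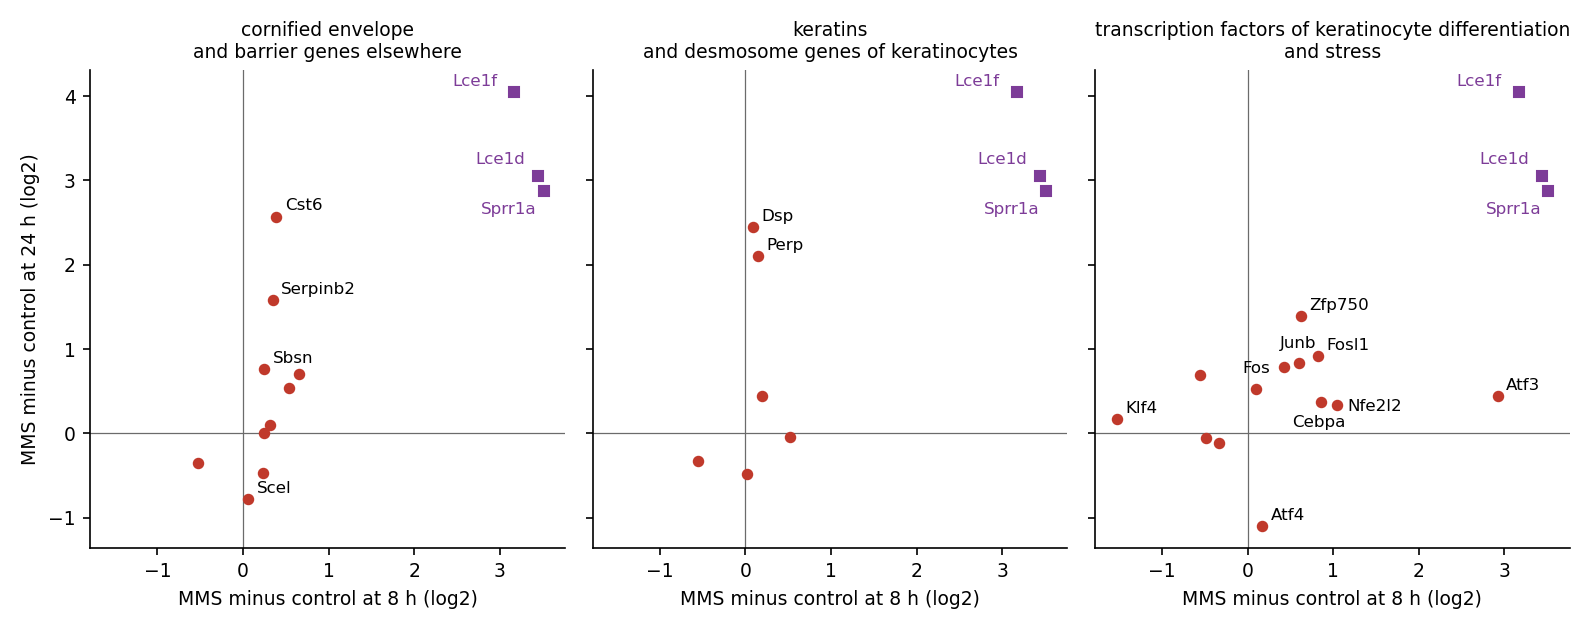
MMS minus control at 8 h (x axis, log2) against 24 h (y axis, log2) for the named genes of 3 lists, barrier genes outside the complex, keratins and desmosome genes, and transcription factors, as red circles, with Lce1d, Lce1f and Sprr1a as purple squares in each panel. The chosen genes, selected for such differences, lie at 2.88 or more on both axes, and none of the named genes of these lists does. Lce1f is drawn by its first probe set, and the second (not drawn) gave 1.24 at 24 h.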

How the data were processed

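Total RNA was measured on 35 Affymetrix arrays of 45101 probe sets. The deposited values are log2 signals that the authors normalized by RMA (version not given in the sources used here). The methods name another array of the same family, but the probe sets matched a mouse array with 45101 probe sets. Platform annotation gave 34958 probe sets 1 gene symbol, 932 several and 9211 none, and only the first were used. Per gene the probe set with the highest mean was kept, and genes whose mean reached the 40th percentile (log2 4.40) in at least 1 group were tested (14135 of 18194). Differences between groups were fitted in R 4.3.3 with limma 3.58.1, as 1 model of 9 groups, 26 residual degrees of freedom, moderated two-sided tests and Benjamini-Hochberg adjustment over all genes tested. The model was checked on simulated data. The methods' permutation analysis of a service company was not used here. Genes named were the 3 chosen, up to 6 called genes per list, time and direction, tested Lce and Sprr genes, and the 8 nearest genes by Pearson's r. The chosen genes, the lists and the alternatives were set with earlier results of these data known. Flg2, Crnn, Pglyrp3, Pglyrp4, Dsg3 and Trp53 were not analysed here.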

Additional observations from a re-analysis of the deposited data

Results flagged for a closer look

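The groups of 4 arrays were checked separately for each of the 3 genes, and chance flags about 1 such group in 20. In 4 of them, 1 array lay far from the other 3. Lce1d read 3.59 on replicate 2 of control 0 h, under the limit. On replicate 3 of MMS 24 h, an array with intestinal transcripts, Lce1d read 5.82, below the other MMS arrays and above all control arrays. Sprr1a read 5.42 on replicate 1 of control 8 h and 4.82 on replicate 3 of control 24 h, both the highest of their group.

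The MMS effect at 24 h differed from that at 8 h, by the limma contrast of the effects at an adjusted p under 0.05, for 29 of 52 named genes of the lists, which were themselves named for calls at single times, and for 45.6% of all genes tested. Lce1d, Lce1f and Sprr1a are not in this test. Each value below is the effect at 24 h minus that at 8 h in log2 units. Within the EDC it was negative for Lce1l (-2.94), Sprr2k (-1.55), Lor (-1.22), Kprp (-0.97), Ivl (-0.93), Sprr2h (-0.90), Lce1i (-0.81), Lce3f (-0.69), Lce1h (-0.54) and Sprr3 (-0.50). It was positive for S100a3 (2.00) and Lce1a1 (0.33). The effect turned from positive at 8 h to negative at 24 h for Sprr2k (0.49 and -1.06), Ivl (0.43 and -0.50) and Sprr3 (0.18 and -0.32). The same held for Lor (1.13 and -0.09) and Sprr2h (0.72 and -0.19). It turned from negative to positive for S100a3 (-0.32 and 1.67) and Lce1a1 (-0.28 and 0.05). The value of Lce1l rests on signals under the limit at 24 h and in control cells, and that of S100a3 on a control mean under the limit at 24 h. Crct1, another gene of the complex, was outside the lists. Barrier genes elsewhere went both ways, with Cst6 at 2.18, Serpinb2 at 1.22, Sbsn at 0.51, Anxa1 at 0.17, Cdsn at -0.69 and Scel at -0.84. Both Scel means at 8 h (4.29 in MMS and 4.23 in control) and its MMS mean at 24 h (3.94) were under the limit. Perp gave 1.95 and Epcam -0.50. For the transcription factors the differences were -2.48 for Atf3, -1.27 for Atf4, -0.70 for Nfe2l2, -0.49 for Cebpa, 0.22 for Fosl2, 0.43 for Jun, 0.77 for Zfp750, 1.26 for Gata3 and 1.70 for Klf4. The 8 h arrays of both conditions stood apart in macrophage markers and Col1a1, and their part in these differences was not tested.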

How the results depend on the processing

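The 8 and 24 h differences of Lce1d, Lce1f and Sprr1a kept their direction under every alternative tried. Sizes moved beyond the replicate spread for Lce1d at 8 h (3.74 after a further quantile normalization), and for Lce1f with the mean of both probe sets (0.85, 3.82 and 2.64 at 1, 8 and 24 h). Against control at 0 h instead of control of the same time, Lce1d at 8 h was 3.61, Sprr1a at 8 h 3.86 and Lce1f 2.61, 7.22 and 4.40 at 1, 8 and 24 h. Without 1 array at a time the 8 h differences ranged from 3.36 to 3.50 for Lce1d, 3.05 to 3.26 for Lce1f and 3.42 to 3.60 for Sprr1a. The difference of Sprr1a between control at 8 h and at 0 h was 0.48 without the arrays with intestinal transcripts and 0.53 with array weights, and that at 72 h 0.35 with array weights. At 24 h its sign turned without the arrays with intestinal transcripts (0.02) and with weights (0.08). Without 1 array at a time these Sprr1a values ranged from -0.02 to 0.19 at 1 h, 0.26 to 0.48 at 8 h, -0.18 to 0.02 at 24 h and -0.04 to 0.18 at 72 h. The highest 8 h value was that without replicate 3 of control 0 h.

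Counts of EDC genes changed as follows: with array weights 1 was higher at 1 h, 5 at 24 h and 6 at 72 h and 2 were lower at 72 h. With only the 2 groups compared, 1 was higher at 72 h. After quantile normalization, after centring on the array median or with the 60th percentile as limit, 3 were lower at 8 h. Without 1 array, 2 to 5 were lower at 8 h (2 without replicate 2 of MMS or replicate 4 of control, 3 without replicate 4 of MMS or replicates 1 or 3 of control) and 1 to 5 were higher at 72 h (1 without replicate 1 and 5 without replicate 2 of control). For barrier genes the number higher at 8 h was 9 after quantile normalization and 7 after centring. With the mean of all probe sets 0 were lower at 8 h and 1 at 24 h, and without a filter 5 were lower at 24 h. With weights the number higher was 2 at 1 h and 6 at 72 h and the number lower 3 at 72 h, and 2 were lower at 72 h without the arrays with intestinal transcripts. Without 1 array, 2 to 6 barrier genes were higher at 8 h (2 without replicate 4 of MMS or replicates 2 or 4 of control) and 1 to 2 lower (2 without replicate 4 of MMS or replicate 3 of control).

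For keratins and desmosome genes, 1 was higher at 1 h with weights or with only the 2 groups. At 8 h, 2 were higher after quantile normalization, with the mean of probe sets or without the arrays with intestinal transcripts and 3 without a filter, and 2 were lower with only the 2 groups or without those arrays. With only the 2 groups, 1 was lower at 24 h. Without 1 array, 1 to 2 were higher at 8 h (2 without replicate 1 of MMS or replicate 2 of control) and 1 to 3 lower at 24 h (1 without replicate 1 of control). Transcription factors higher with weights numbered 8 at 1 h and 8 at 72 h. Lower at 24 h were 4 after centring or with weights, 3 without the 8 h arrays, and 2 with the mean of probe sets, without the arrays with intestinal transcripts or with only the 2 groups. Lower at 72 h were 1 with the mean of probe sets and 4 with weights. Without 1 array, 1 to 2 factors were higher at 1 h (1 without replicates 1 or 3 of MMS or replicate 3 of control), 5 to 10 higher (5 without replicate 1 of MMS) and 1 to 2 lower at 24 h (2 without replicate 1 of MMS or of control), and 3 to 6 higher at 72 h (3 without replicate 1 of MMS).

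Of 82 calls of named list genes, 25 lost the threshold under at least 1 alternative, among them Ivl at 8 h (0.40 with weights), S100a3 at 8 h and Sprr2k at 72 h (0.47 with only the 2 groups, adjusted p = 0.12, limma). With the mean of all probe sets the sign turned for Anxa1 (0.26) and Epcam (0.48) at 24 h and for Fosl2 at 8 h (0.04). Of the 8 nearest genes, Spearman's rho shared 1 for Lce1d, 1 for Lce1f and 0 for Sprr1a, so the names of the nearest genes depend on the measure. The replicate numbers were not used as pairs, and whether they pair the samples is not known. Arrays of the same number correlated in their deviations from the group mean at -0.26 to 0.31, and at 0.09 to 0.31 at 1 h. With the replicate block the 8 h difference of Lce1d was 3.44, of Lce1f 3.17 and of Sprr1a 3.51. The causes of these shifts were not tested. Signal near the background limits Lce1d in control cells and the second Lce1f probe set.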

Other observations

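Sprr2a, a proline-rich gene with several near-identical copies, was measured only by probe sets that carry several gene symbols and was left out of the tests. Its brighter such probe set read 6.63, 6.78, 13.73 and 6.61 in control cells at 0 h and 6.02, 6.45, 11.87 and 5.80 in MMS cells at 24 h. The high array was replicate 3 in both groups, the array with intestinal transcripts. In the 8 h groups the same probe set read 6.73, 6.53, 6.64 and 6.65 in control and 6.69, 6.49, 6.66 and 6.49 in MMS cells, and the groups overlapped, at the time when Sprr1a differed by 3.51.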
